A study of Homo sapiens with 8 samples.

Results

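The SLC25 family holds the carrier proteins of the inner mitochondrial membrane. All probes were taken whose platform symbol begins with SLC25A or is UCP1, UCP2, UCP3, MTCH1 or MTCH2, which gave 77 of the 47323 probes on the array and 53 of its 20046 gene symbols. They were followed in human liver cell cultures kept for 5 days in 3 formats: inside a perfused bioreactor on a porous polycarbonate support (3DBR, called perfused 3D, 2 arrays), on the same support standing in the wells of a plate (3D, called static 3D, 3 arrays), and as a monolayer (2D, 3 arrays). Monolayers were started with 0.25 times as many vital cells as the cultures on the support, so format and seeded number cannot be told apart in either comparison with 2D. No drug or genetic change is named for any group, and the labels of individual samples do not say which donor or culture an array came from. The p-values therefore measure the spread between these arrays. The design text describes hepatocytes of 3 donors and 3 perfused cultures, whereas only 2 perfused arrays were available here. The sample characteristics instead name the hepatocarcinoma line HepG2.

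SLC25 carriers are encoded in the nucleus, imported through the outer membrane and inserted into the inner membrane, where each exchanges or admits a narrow set of solutes: nucleotides, phosphate, organic acids, amino acids, acylcarnitines, cofactors or metal ions. In hepatocytes they link the compartments of the urea cycle, gluconeogenesis, fatty acid oxidation, citrate export and haem synthesis. Uncoupling proteins are members of the same family, and a few relatives (MTCH1, MTCH2 and SLC25A46) sit in the outer membrane instead.

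The promoters of 4 members are shown because these genes had the smallest unadjusted p of a comparison (SLC25A47 and UCP2), were the other carrier with an unadjusted p under 0.05 (SLC25A38) or, chosen after its values were seen, spread widely among the arrays (SLC25A18). Each is the 250 bases before the gene's start in RefSeq, build GRCh38.p14, on the gene's own strand and 5′ to 3′. Capitals mark the TATA box core TATAAA, the CCAAT box, the E-box CACGTG and the GC box GGGCGG, searched on both strands. None of these motifs overlaps another, except that the TATAAA matches on both strands of SLC25A18 overlap each other. SLC25A47 lies on the plus strand at chr14:100323339-100330421 and its window at chr14:100323089-100323338. SLC25A38 lies on the plus strand at chr3:39383370-39397351 with its window at chr3:39383120-39383369. UCP2 lies on the minus strand at chr11:73974672-73983202 with its window at chr11:73983203-73983452. SLC25A18 lies on the plus strand at chr22:17563498-17590995 with its window at chr22:17563248-17563497.
SLC25A47: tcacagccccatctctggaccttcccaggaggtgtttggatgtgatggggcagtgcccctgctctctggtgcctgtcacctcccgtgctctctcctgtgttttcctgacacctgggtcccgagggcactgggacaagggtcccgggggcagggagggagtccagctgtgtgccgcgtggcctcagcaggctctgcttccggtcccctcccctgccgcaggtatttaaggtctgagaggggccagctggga
SLC25A38: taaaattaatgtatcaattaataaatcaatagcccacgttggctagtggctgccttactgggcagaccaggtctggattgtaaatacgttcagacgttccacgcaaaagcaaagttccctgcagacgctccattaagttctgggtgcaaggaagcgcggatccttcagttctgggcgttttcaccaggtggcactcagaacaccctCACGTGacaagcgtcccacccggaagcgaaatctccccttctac
UCP2: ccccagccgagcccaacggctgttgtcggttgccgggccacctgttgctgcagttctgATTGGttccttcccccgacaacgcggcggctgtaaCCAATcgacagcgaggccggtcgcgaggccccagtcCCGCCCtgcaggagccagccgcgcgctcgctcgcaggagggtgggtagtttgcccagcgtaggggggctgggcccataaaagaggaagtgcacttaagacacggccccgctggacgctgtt
SLC25A18: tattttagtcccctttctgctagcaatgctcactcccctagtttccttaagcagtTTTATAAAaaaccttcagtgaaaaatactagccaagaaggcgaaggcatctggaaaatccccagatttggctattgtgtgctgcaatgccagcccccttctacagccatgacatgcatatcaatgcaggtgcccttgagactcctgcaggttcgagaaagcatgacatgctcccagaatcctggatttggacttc
The SLC25A47 window holds none of the 4 motifs. SLC25A38 has 1 CACGTG, UCP2 has 2 CCAAT and 1 GGGCGG, and SLC25A18 has 2 TATAAA. Among 35116 promoter windows of the same length, 10.7% hold TATAAA, 32.0% hold CCAAT, 6.34% hold CACGTG and 42.6% hold GGGCGG. A promoter entry was found for 33 of the 35 members tested. CpG pairs were counted on the entry with the most of them where a gene has several. SLC25A18 with 2 CpG pairs and SLC25A47 with 7, each with 1 entry, had the fewest of the 33, the others holding 11 to 42. The median of 11 over all windows counts each window singly, so it is not a like measure. UCP2 has 26 by its highest entry and 23 in the window printed. The base composition was 64.8% G or C for SLC25A47, 49.6% for SLC25A38, 66.8% for UCP2 and 46.0% for SLC25A18, against a median of 58.0%. A match is a run of letters and no evidence of binding.

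A probe was called detected where the scanner's detection p, a rank among negative-control beads, lay under 0.05. Genes with a probe detected on at least 2 arrays were tested, which left 35 of the 53 symbols and 11031 genes in all. Levels below are log2 intensities after background correction and quantile normalisation between arrays, given in replicate order. Replicate numbers are only the order of the samples within a group. The labels give none, so a number shared between groups does not mean a shared donor or run. A level belongs to its own probe, so levels of different genes are not set against each other. Between 29.7% and 34.3% of all probes were detected per array, and between 33 and 43 of the 77 carrier probes. The mean over the 35 carriers lay between 9.28 and 9.65 on all 8 arrays. On 7 of 8 arrays the most similar other array belonged to another group. Static 3D replicate 1 and 2D replicate 1 were nearest to each other, at a correlation of only 0.921. Every other array had its nearest at 0.968 to 0.976. Both groups set against perfused 3D thus hold an outlying array. Static 3D replicate 1 and both perfused arrays share a chip, and the other 5 arrays share the second, so perfused 3D and 2D have no chip in common.

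Markers of hepatocytes were detected in each format. Of 11 hepatocyte markers tested, 11 were detected on both perfused arrays, and 10 on each static 3D and 2D array. The marker not detected outside perfused 3D was CYP3A4. Their summed intensity was 233000 and 229000 in perfused 3D, 197000 to 272000 in static 3D and 104000 to 186000 in 2D. Of the 5 markers of HepG2 and fetal liver, GPC3 and DLK1 did not reach the detection filter and between 1 and 3 of the other 3 were detected per array. PEG10 was detected on 1 perfused, 2 static and 2 2D arrays, and IGF2 on 0, 2 and 2. AFP was detected on all 8 arrays, at 9.22 and 8.94 in perfused 3D, 9.44, 8.87 and 9.03 in static 3D, and 10.25, 9.88 and 9.43 in 2D. Macrophage markers were detected on the same arrays: 15 of 15 on both perfused arrays, 4, 15 and 13 on the static 3D arrays and 7, 15 and 14 on the 2D arrays. Static 3D replicate 1 and 2D replicate 1 thus had the fewest, and on both 1 of 7 stellate and fibroblast markers was detected, against 6 or 7 elsewhere. All 8 tested markers of dividing cells were detected on these same 2 arrays, against 3 to 5 on the others. Bile duct markers were detected 4 of 4 on every array, endothelial markers 0 to 3 of 3, lymphocyte markers 2 to 5 of 5, erythroid markers 1 or 2 of 2 and brown fat markers 1 to 3 of 3. None of 4 muscle markers on the array reached the filter. The part of these differences in the carrier results was not tested.

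Carriers of most substrate groups were detected. Of the 35 tested genes, 25 had a detected probe on all 8 arrays. Of the carriers of ADP/ATP and ATP-Mg/phosphate 5 of 7 were tested, of phosphate and uncoupling 2 of 6, of citrate, malate and oxoacids 3 of 6, and of amino acids, ornithine and carnitine 9 of 10. Of the carriers of cofactors and nucleotides 6 of 9 were tested, of iron and glutathione 4 of 4, of the outer membrane 3 of 3, and of those assigned no substrate here 3 of 5. None of 3 antisense or pseudogene symbols (SLC25A21-AS1, SLC25A3P1 and SLC25A51P4) was detected.

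The other 18 symbols did not reach the detection filter. In 17 of them no probe was detected on any array. They include SLC25A31, the ADP/ATP carrier of germ cells, and SLC25A41, an ATP-Mg/phosphate carrier. SLC25A27 and SLC25A30, relatives of the uncoupling proteins, UCP3, the uncoupling protein of muscle, SLC25A2, the second ornithine carrier, and SLC25A21, the oxodicarboxylate carrier, were likewise not detected. So were SLC25A32 (folate and flavin), SLC25A33 (pyrimidine nucleotides), SLC25A52 (NAD), SLC25A34, SLC25A35, SLC25A48 and SLC25A53. UCP1, the heat-producing protein of brown fat, was detected on 1 array, perfused 3D replicate 2, at 6.89, where the lowest level of any detected probe per array was 6.75 to 6.94. An undetected probe gives only a bound, and the highest level of any carrier probe left out was 7.02. The symbols SLC25A6 and SLC25A14 are unlisted in the probe annotation and were not analysed here.

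**Figure D1:**
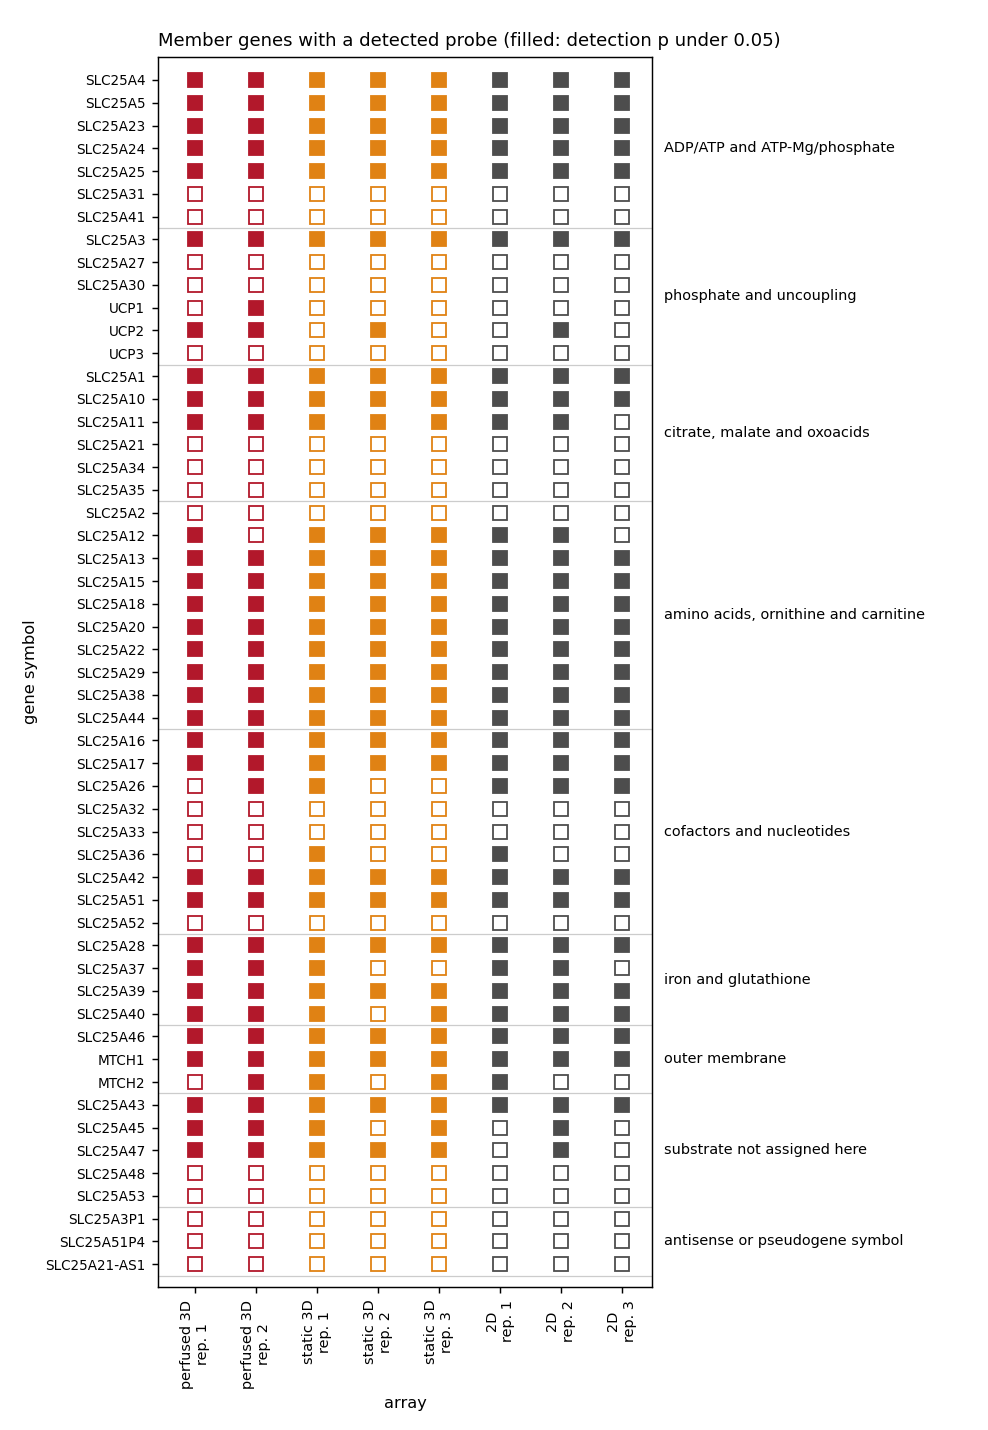
Detection of the 53 carrier symbols (rows, grouped by role) on each of the 8 arrays (columns, perfused 3D, static 3D and 2D). A filled square means that at least 1 probe had a detection p under 0.05; 25 of the 35 tested genes are filled on all 8 arrays, and UCP2, SLC25A26, SLC25A36, SLC25A45, SLC25A47 and MTCH2 are among those filled on some.

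No carrier gene passed the test in any of the 3 comparisons (limma, adjusted p under 0.05 over 11031 genes). For perfused 3D against 2D, 0 of 35 were called, beside 0.00907% of all genes, and 1 of 35 had an unadjusted p under 0.05, beside 4.23%. For static 3D against 2D, 0 of 35 were called, beside 0% of all genes, and 2 of 35 had an unadjusted p under 0.05, beside 4.7%. For perfused against static 3D, 0 of 35 were called, beside 0.00907%, and none had an unadjusted p under 0.05, beside 1.88%. The share of carriers at this threshold was close to that of all genes or below it. The single gene called anywhere was CYP3A4, a drug-metabolising enzyme, higher in perfused 3D than in either other group.

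The intervals show how far a difference could go undetected. The median standard error of the 35 log2 fold changes was 0.33 for perfused 3D against 2D, 0.29 for static 3D against 2D and 0.33 for perfused against static 3D. The median size of the fold change itself was 0.26, 0.19 and 0.23 in the same order. The 95% interval lay wholly within 1 log2 unit of 0 for 15, 17 and 15 of the 35 genes. For the others a difference of up to 2-fold or more was within the error.

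**Figure D2:**
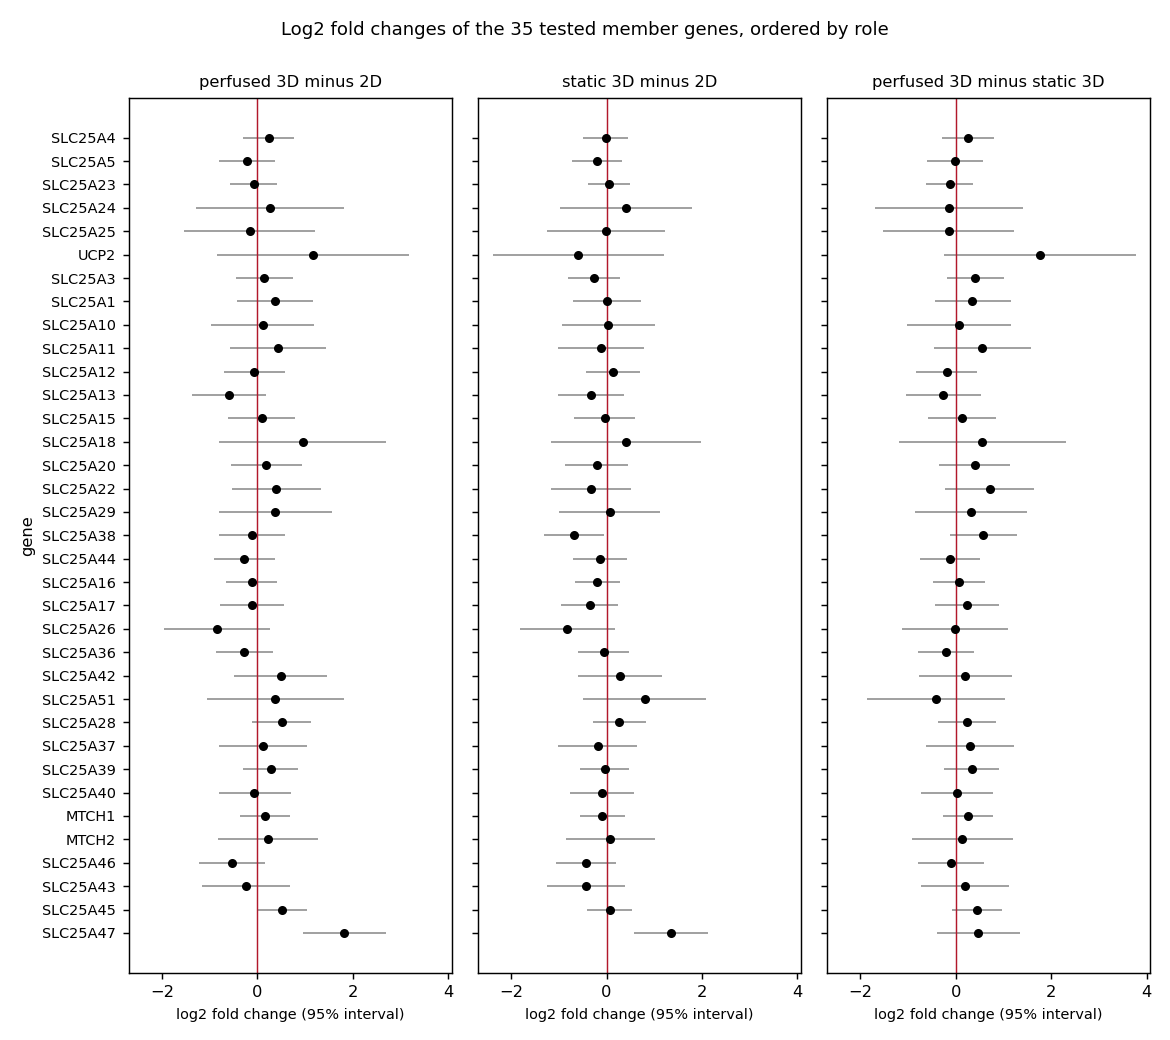
Log2 fold changes (points) with 95% intervals (lines) of the 35 tested carrier genes for perfused 3D minus 2D, static 3D minus 2D and perfused minus static 3D, genes ordered by role. Most intervals span 0; SLC25A47 lies at 1.82 and 1.35 over 2D, and UCP2 at 1.76 for perfused over static 3D with an interval that includes 0.

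The gene that stood furthest above 2D in both 3D formats was SLC25A47, an inner membrane carrier expressed mainly in liver whose promoter is the first sequence above. Its level was 8.34 and 8.22 in perfused 3D, 7.81, 7.68 and 7.94 in static 3D, and 6.11, 7.25 and 6.02 in 2D. Both perfused arrays lay above all static ones, and all 5 arrays of 3D culture lay above all 3 of 2D. The probe was detected on all 5 arrays of 3D culture but on 1 of 3 monolayers, replicate 2. The mean was 8.28 ± 0.08 (SD, n = 2) in perfused 3D, 7.81 ± 0.13 (n = 3) in static 3D and 6.46 ± 0.69 (n = 3) in 2D. Perfused 3D exceeded 2D by 1.82 on the log2 scale (SE 0.38, 95% interval 0.95 to 2.69), with an unadjusted p of 0.00118 and a limma adjusted p of 0.871. Static 3D exceeded 2D by 1.35 (SE 0.34, interval 0.57 to 2.12), with an unadjusted p of 0.0037 and a limma adjusted p of 0.94. The difference of perfused over static 3D was 0.47, 1.39-fold (SE 0.38, interval -0.4 to 1.34, limma adjusted p = 1). The undetected monolayers give only a bound. Each was then raised to the detection floor of its array, the lowest level at which a probe was detected there. With this the differences over 2D were 1.32 (2.49-fold) for perfused 3D and 0.85 (1.8-fold) for static 3D. These hold for the background correction used here. Without background correction the differences over 2D were 0.84 and 0.6, and with the chip as a block 1.81 and 1.35. Without replicate 1 of both 2D and static 3D they were 1.64 and 1.17.

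The mean of the hepatocyte markers was also lower on every monolayer than on every array of 3D culture. Over the 11 markers, the mean log2 intensity was 13.53 and 13.55 in perfused 3D, 13.19, 12.87 and 13.5 in static 3D, and 11.4, 12.82 and 12.58 in 2D. CYP3A4, at 9.06 and 9.53 in perfused 3D and 5.54 to 6.02 elsewhere, raises the perfused means relative to the others. ALB went the other way, highest on 2D replicate 1 at 15.78 against 15.62 to 15.69 elsewhere. The monolayer with the highest SLC25A47 level, replicate 2, also had the highest marker mean of the 3 monolayers. On 2D replicate 3, by contrast, SLC25A47 was not detected at 6.02 although its markers averaged 12.58, close to those of replicate 2. In bulk RNA fewer cells of a type and less RNA per cell cannot be told apart, and the part of the markers in the SLC25A47 difference was not tested.

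UCP2, an uncoupling protein abundant in macrophages and other immune cells, had the widest range of all carriers, 3.31 log2 units over 8 arrays, wider than in 97.1% of all genes tested. It lay at 8.96 and 7.56 in perfused 3D, at 5.64, 7.13 and 6.72 in static 3D, and at 5.72, 8.88 and 6.68 in 2D. It was detected on both perfused arrays but on 1 array each of static 3D and 2D, replicate 2 in both. The perfused arrays lay above all static ones and overlapped with 2D, whose replicate 2 was nearly as high as the highest perfused array. The mean was 8.26 ± 0.99 (SD, n = 2) in perfused 3D, 6.5 ± 0.77 (n = 3) in static 3D and 7.09 ± 1.62 (n = 3) in 2D. Perfused exceeded static 3D by 1.76 with an interval from -0.25 to 3.77 (SE 0.88, unadjusted p = 0.079, limma adjusted p = 1). Within the chip that holds both groups the difference was 2.61, against static 3D replicate 1 alone, and it was between 1.06 (without perfused replicate 1) and 2.46 when single arrays were left out. With the undetected static arrays set to the detection floor as above it was 1.33 (2.51-fold), and without background correction 0.89.

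The summed intensity of 15 macrophage markers was 39900 and 18400 in perfused 3D, 7010, 26200 and 19800 in static 3D, and 4590, 37200 and 13400 in 2D. The arrays with the lowest sums, replicate 1 of static 3D and of 2D, had the lowest UCP2, and those with the highest sums, perfused 3D replicate 1 and 2D replicate 2, had the highest. Between these extremes the order differed. Perfused replicate 2 had a lower sum than static replicates 2 and 3 but a higher UCP2, at 7.56 against 7.13 and 6.72. C1QB, a complement gene of macrophages, lay at 12.77 and 10.91 in perfused 3D, at 5.44, 11.87 and 11.28 in static 3D, and at 5.45, 12.71 and 10.99 in 2D. LYZ, alone of the 15 markers, was higher on perfused replicate 2 than on perfused replicate 1, at 11.12 against 8.98. The part of these markers in the UCP2 values was not tested.

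**Figure D3:**
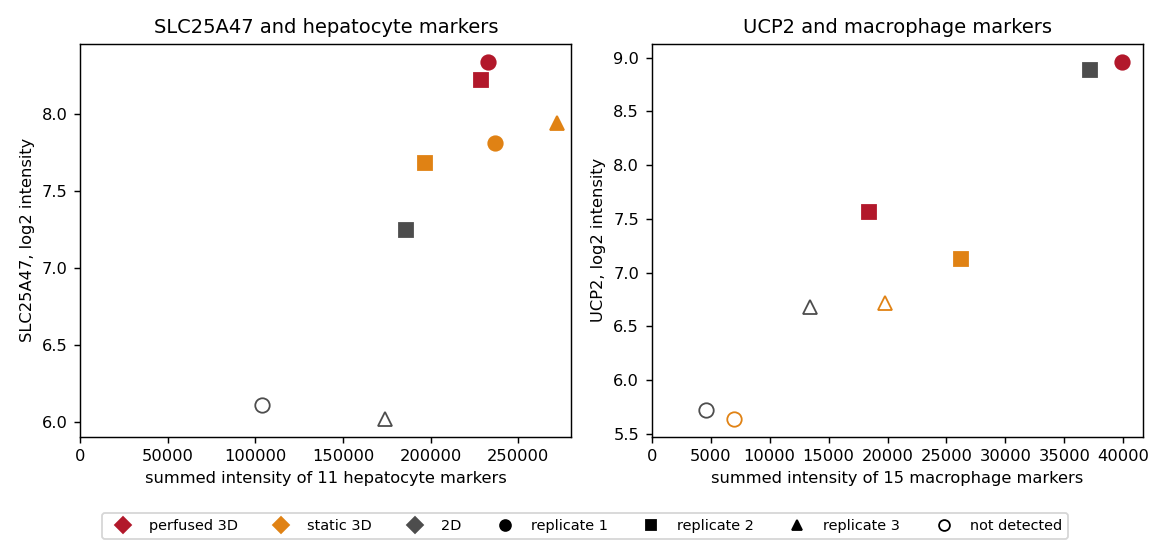
Log2 intensity of SLC25A47 against the summed intensity of 11 hepatocyte markers (left) and of UCP2 against that of 15 macrophage markers (right), 1 point per array, with colour for the group, shape for the replicate and open symbols for arrays where the carrier was not detected. The highest and lowest UCP2 levels, 8.96 and 5.64, fall on arrays with sums of 39900 and 7010; the 2 undetected SLC25A47 values are monolayers with sums of 104000 and 174000.

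The carriers that supply ATP synthesis overlapped between 2D and both 3D formats. SLC25A5, the ADP/ATP carrier of proliferating and epithelial cells, lay at 13.89 and 14.23 in perfused 3D, 14.29, 13.82 and 14.12 in static 3D, and 14.62, 13.91 and 14.28 in 2D. SLC25A3, which brings phosphate into the matrix, lay at 13.61 and 14.36 in perfused 3D, 13.53, 13.43 and 13.76 in static 3D, and 13.81, 13.65 and 14.05 in 2D. In neither gene were the groups separated from 2D. Perfused exceeded static 3D by 0.41 for SLC25A3 (SE 0.26, unadjusted p = 0.157, limma adjusted p = 1), by 0.03 without perfused replicate 2 and by 0.79 without perfused replicate 1. SLC25A4, the isoform of heart and muscle, spanned 0.63 log2 units over the 8 arrays and the calcium-regulated ATP-Mg/phosphate carrier SLC25A23 spanned 0.43, a narrower range than in all but 2.62% of genes.

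The other calcium-regulated carriers of ATP-Mg and phosphate, SLC25A24 and SLC25A25, differed more between arrays than between formats. SLC25A25 lay at 10.53 and 10.44 in perfused 3D, at 10.19, 11.33 and 10.36 in static 3D, and at 9.75, 11.89 and 10.27 in 2D. Replicate 2 was the highest array of both static 3D and 2D. A second SLC25A25 probe, at 7.21 and 6.43 in perfused 3D, 6.3, 7.85 and 6.51 in static 3D and 6.59, 8.45 and 6.24 in 2D, was highest on the same arrays. SLC25A24, named after its values were seen, was also highest on replicate 2 of both groups: it lay at 9.16 and 8.24 in perfused 3D, 7.48, 9.92 and 9.13 in static 3D, and 8.06, 9.10 and 8.16 in 2D.

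Carriers of organic acids overlapped between all formats. SLC25A1, which exports citrate for fatty acid and sterol synthesis, lay at 12.09 and 12.83 in perfused 3D, 12.29, 11.83 and 12.20 in static 3D, and 11.68, 11.96 and 12.65 in 2D. SLC25A11, the oxoglutarate carrier of the malate-aspartate shuttle, lay at 7.45 and 8.28 in perfused 3D, 7.85, 7.0 and 7.06 in static 3D, and 7.65, 7.86 and 6.75 in 2D. SLC25A11 was detected on all arrays but 2D replicate 3. The dicarboxylate carrier SLC25A10 ranged from 8.45 to 10.23, with both ends in static 3D.

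Among amino acid carriers the values below 2D at the smallest unadjusted p belonged to SLC25A38, the carrier that brings glycine into the matrix for haem synthesis. It lay at 8.46 and 8.57 in perfused 3D, at 8.44, 7.63 and 7.74 in static 3D, and at 8.71, 8.69 and 8.47 in 2D. All static arrays were below all perfused and all 2D arrays, static replicate 1 by a narrow margin. Static 3D was 0.68 below 2D (log2 fold change -0.68, SE 0.28, interval -1.31 to -0.05, unadjusted p = 0.0364, limma adjusted p = 0.94). On the chip that holds both groups, without static replicate 1, this difference was -0.94, and without background correction it was -0.36. Perfused exceeded static 3D by 0.57 (SE 0.31, unadjusted p = 0.0971, limma adjusted p = 1), and by 0.07 within the chip these groups share, where static replicate 1 is the only static array.

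Carriers of the urea cycle are given beside its first enzyme. SLC25A13, the aspartate/glutamate carrier citrin, lay at 8.74 and 9.36 in perfused 3D, 9.28, 9.07 and 9.57 in static 3D, and 10.14, 9.38 and 9.38 in 2D. Both perfused arrays were below all 2D arrays, replicate 2 by a narrow margin, at a log2 fold change of -0.59 (SE 0.34, interval -1.37 to 0.19, limma adjusted p = 0.964). It was -0.28 without perfused replicate 1, -0.9 without perfused replicate 2 and -0.33 without 2D replicate 1. SLC25A15, the ornithine carrier, lay at 9.14 and 9.79 in perfused 3D, 9.45, 8.93 and 9.62 in static 3D, and 9.52, 9.28 and 9.33 in 2D, with all groups overlapping. CPS1, the first enzyme of the cycle, lay at 11.42 and 11.27 in perfused 3D, 12.07, 10.68 and 11.81 in static 3D, and 8.24, 10.26 and 9.43 in 2D, with every array of 3D culture above every monolayer. Its log2 fold change was 2.03 for perfused 3D (SE 0.59, limma adjusted p = 0.964) and 2.21 for static 3D over 2D (SE 0.53, limma adjusted p = 0.94). The difference between the enzyme and the carriers was not tested.

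Probes disagreed for SLC25A15: static 3D minus 2D was -0.04 by its main probe and -0.86 by the second one. SLC25A20, the carnitine-acylcarnitine carrier of fatty acid oxidation, lay at 9.61 and 9.83 in perfused 3D, 9.33, 9.38 and 9.26 in static 3D, and 8.92, 9.77 and 9.91 in 2D. Perfused arrays lay above static ones and within the range of 2D. The glutamate carrier SLC25A22 lay at 9.76 and 10.82 in perfused 3D, 10, 9.34 and 9.38 in static 3D, and 10.28, 9.41 and 10 in 2D. Its difference of perfused over static 3D was 0.72 (SE 0.41, unadjusted p = 0.116, limma adjusted p = 1) and overlapped between arrays; it was 0.18 without perfused replicate 2, 1.25 without perfused replicate 1 and 0.29 within the chip. The second glutamate carrier, SLC25A18, lay at 10.53 and 11.28 in perfused 3D, 10.40, 9.89 and 10.77 in static 3D, and 8.18, 10.55 and 11.13 in 2D. 2D replicate 1 alone set its range of 3.1 log2 units, on the array with the lowest hepatocyte marker sum, and the other monolayers were as high as the 3D cultures. The remaining amino acid carriers, SLC25A12 (aspartate/glutamate), SLC25A29 (basic amino acids) and SLC25A44 (branched-chain amino acids), lay between 6.51 and 7.37, between 7.14 and 8.89, and between 8.32 and 8.95.

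Of the cofactor carriers, SLC25A26, which brings S-adenosylmethionine into the matrix, was detected on all 3 monolayers and on 1 array each of perfused and static 3D. Its level was 6.48 and 7.12 in perfused 3D, 7.55, 6.64 and 6.28 in static 3D, and 7.91, 6.87 and 8.14 in 2D. The groups overlapped through 2D replicate 2. The log2 fold change was -0.84 for perfused 3D (SE 0.49, interval -1.96 to 0.27, limma adjusted p = 0.964) and -0.82 for static 3D over 2D (SE 0.44, interval -1.82 to 0.17, limma adjusted p = 0.94). With the chip as a block the value for perfused 3D over 2D was -1.93 (SE 0.7), and for static 3D it was -1.19. Without background correction the values were -0.37 and -0.36, with undetected arrays at the detection floor -0.69 and -0.52, and without perfused replicate 1 the first was -0.52.

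The NAD carrier SLC25A51 lay at 13.24 and 11.60 in perfused 3D, 12.91, 13.23 and 12.37 in static 3D, and 11.69, 13.16 and 11.26 in 2D. Static arrays were high as a group, but 1 perfused array and 1 monolayer were as high, and the difference of static 3D over 2D was 0.80 (SE 0.56, unadjusted p = 0.194, limma adjusted p = 0.94). It was 0.41 without 2D replicate 3 and 1.36 without 2D replicate 2. SLC25A42, which carries coenzyme A, lay at 10.64 and 10.62 in perfused 3D, 11.31, 10.16 and 9.81 in static 3D, and 10.16, 10.46 and 9.81 in 2D. SLC25A17, the peroxisomal carrier of coenzyme A and NAD, lay at 7.93 and 8.00 in perfused 3D, 8.05, 7.86 and 7.31 in static 3D, and 8.14, 7.92 and 8.20 in 2D. For SLC25A17 static 3D minus 2D was -0.35 (SE 0.26, unadjusted p = 0.216, limma adjusted p = 0.94), with the low value on static replicate 3. Without that array it was -0.13. SLC25A16 had the narrowest range of all carriers, 7.77 to 8.14, narrower than in all but 1.38% of genes. The nucleotide carrier SLC25A36 was detected only on replicate 1 of static 3D and of 2D.

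**Figure D4:**
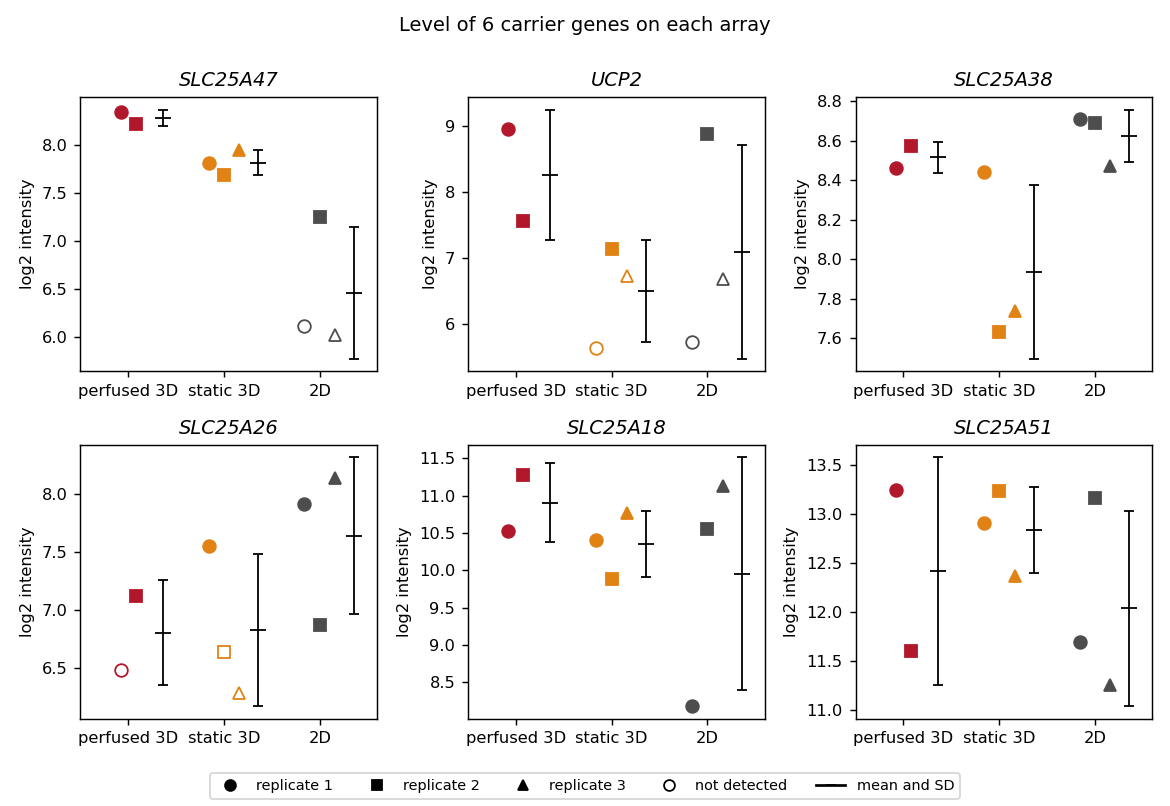
Log2 intensity of 6 carrier genes on each array (points, shaped by replicate, open where not detected) in perfused 3D, static 3D and 2D, with mean and SD beside the points. SLC25A47 separates all 5 arrays of 3D culture from the 3 monolayers and SLC25A38 all static arrays from both other groups, whereas UCP2, SLC25A26, SLC25A18 and SLC25A51 vary within groups as widely as between them.

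Iron and glutathione carriers differed between formats by small margins, none past the test. SLC25A28, mitoferrin-2, the iron importer of non-erythroid cells, lay at 10.57 and 11.24 in perfused 3D, 10.89, 10.56 and 10.56 in static 3D, and 10.49, 10.22 and 10.48 in 2D. All 5 arrays of 3D culture were above all monolayers, by small margins, and perfused 3D minus 2D was 0.51 (SE 0.27, interval -0.11 to 1.13, limma adjusted p = 0.964). It was 0.18 with the chip as a block, 0.17 without perfused replicate 2 and 0.84 without perfused replicate 1. SLC25A37, mitoferrin-1, the importer of erythroid cells, was close to the limit of detection at 7.5 and 7.09 in perfused 3D, 7.74, 6.82 and 6.43 in static 3D, and 7.51, 7.19 and 6.83 in 2D. Of the erythroid markers beside it, HBB, HBA1, AHSP and EPB42 did not reach the filter. HBA2 was detected on 2 of 2 perfused, 2 of 3 static and 2 of 3 2D arrays, and ALAS2 on 2, 3 and 2. SLC25A39, a glutathione importer, lay at 12.14 and 12.84 in perfused 3D, 12.13, 12.07 and 12.28 in static 3D, and 12.28, 12.02 and 12.31 in 2D. Perfused replicate 2 alone stood out: perfused minus static 3D was 0.33 (SE 0.25, limma adjusted p = 1), and -0.02 without that array. Its relative SLC25A40 lay between 6.62 and 7.47.

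Of the outer membrane members, SLC25A46, which acts in mitochondrial dynamics, lay at 8.80 and 9.07 in perfused 3D, 9.41, 8.63 and 9.08 in static 3D, and 9.74, 9.37 and 9.29 in 2D. Perfused arrays were below all monolayers, and static replicate 1 reached the range of 2D. The log2 fold change over 2D was -0.53 for perfused 3D (SE 0.31, unadjusted p = 0.118, limma adjusted p = 0.964) and -0.43 for static 3D (SE 0.27, unadjusted p = 0.154, limma adjusted p = 0.94). With the chip as a block the values were -1.09 and -0.62, and the static 3D value was -0.22 without static replicate 2 and -0.29 without 2D replicate 1. MTCH1 lay at 12.60 and 13.11 in perfused 3D, 12.73, 12.50 and 12.58 in static 3D, and 12.58, 12.60 and 12.90 in 2D. MTCH2, an insertase for outer membrane proteins, lay near the detection limit at 6.58 and 7.63 in perfused 3D, 7.64, 6.27 and 6.98 in static 3D, and 7.22, 6.55 and 6.87 in 2D. Neither MTCH gene separated the formats.

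Of the carriers to which no substrate is assigned here, SLC25A45 had the second smallest unadjusted p for perfused 3D against 2D. It lay at 7.45 and 7.22 in perfused 3D, 6.88, 6.69 and 7.09 in static 3D, and 6.73, 6.91 and 6.81 in 2D. Both perfused arrays were above all others, and the probe was detected on 2 of 2 perfused, 2 of 3 static and 1 of 3 2D arrays. Perfused 3D exceeded 2D by 0.52 (SE 0.23, interval -0.01 to 1.04, unadjusted p = 0.0522, limma adjusted p = 0.964) and static 3D by 0.44 (SE 0.23, unadjusted p = 0.0858, limma adjusted p = 1). Without background correction these were 0.21 and 0.18. SLC25A43 lay between 8.99 and 10.53.

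Over all 35 carriers, the median fold changes were small in each comparison. Perfused 3D minus 2D had a median log2 fold change of 0.149 over the 35 genes, against 0.008 over all genes, with 21 above 0 and 14 below. Static 3D minus 2D had a median of -0.059, against 0.001, with 13 above 0 and 22 below. Perfused minus static 3D had a median of 0.204, against 0.002, with 24 above and 11 below. Of all genes, 50.9%, 50.1% and 50.2% lay above 0 in the same order. The first median depends on single arrays and on the chip: it was -0.092 without perfused replicate 2 and -0.099 with the chip as a block. The third was 0.055 without that array and 0.013 with the block. Perfused 3D shares its arrays between 2 of these comparisons, and 2D and static 3D theirs, so they are not independent.

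Groups that did not overlap were found at about the rate of all genes. Between perfused 3D and 2D, 4 carriers were higher on every perfused array (SLC25A28, SLC25A42, SLC25A45 and SLC25A47) and 3 lower (SLC25A13, SLC25A44 and SLC25A46), together 7 of 35, beside 20.9% of all genes (10.8% higher and 10.1% lower). Between static 3D and 2D, SLC25A28 and SLC25A47 were higher and SLC25A16 and SLC25A38 lower on every static array, 4 of 35, beside 10.1% of all genes (4.96% higher and 5.18% lower). Between perfused and static 3D, SLC25A20, SLC25A38, SLC25A45, SLC25A47 and UCP2 were higher and SLC25A23 lower on both perfused arrays, 6 of 35, beside 17.3% of all genes (8.95% higher and 8.31% lower).

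For 9 of the 35 genes more than 1 probe was kept, and the probe with the highest mean stood for the gene. All kept probes of a gene had the same sign in 5 of the 9 for perfused 3D minus 2D, in 8 for static 3D minus 2D and in all 9 for perfused minus static 3D. The probes that disagreed with 2D as the baseline were those of SLC25A3, SLC25A15, SLC25A40 and SLC25A43 for perfused 3D, and of SLC25A29 for static 3D. For SLC25A3 the perfused 3D values were 0.15 by the main probe and -0.12 and 0.34 by the others. Cross-hybridisation between related carriers was not checked, since probe sequences were not used here.

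Genes that import carriers into the inner membrane were mostly below 2D, without any passing the test. Of 14 tested, 13 lay below 0 for perfused 3D minus 2D (median -0.275) and 12 for static 3D minus 2D (median -0.42), against 7 for perfused minus static 3D (median -0.007), and 0 were called in each. TOMM5, a small subunit of the outer membrane entry pore, lay at 9.19 and 9.86 in perfused 3D, 9.34, 9.48 and 9.41 in static 3D, and 10.62, 9.99 and 9.64 in 2D. All static arrays were below all monolayers, at a log2 fold change of -0.67 (SE 0.31, unadjusted p = 0.058, limma adjusted p = 0.94), and for perfused 3D it was -0.55 (SE 0.34). TOMM22, a receptor of the same pore, lay at 10.05 and 10.46 in perfused 3D, 10.53, 9.93 and 9.82 in static 3D, and 11.34, 10.33 and 10.54 in 2D, and its static 3D value over 2D was -0.64 (SE 0.33, limma adjusted p = 0.94). AGK, a subunit of the carrier translocase, was at -0.41 (SE 0.27) for static 3D over 2D. The intermembrane chaperones TIMM8B and TIMM9 were at -0.67 (SE 0.40) and -0.69 (SE 0.49) for perfused 3D over 2D. TIMM9 lay at 8.36 and 8.62 in perfused 3D and at 10.21, 8.39 and 8.92 in 2D, with 2D replicate 1 far above the other monolayers. For perfused over static 3D the smallest p-values belonged to TIMM10B at 0.65 (SE 0.41), TOMM20 at -0.29 (SE 0.20) and TIMM8B at -0.36 (SE 0.40). TIMM8B was detected on 0 of 2 perfused arrays, so both of its values rest on levels that give only a bound.

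The pattern depended on 2D replicate 1, on which both TOMM5 and TOMM22 were highest. Without it 8 of 14 lay below 0 for perfused 3D (median -0.12) and 7 of 14 for static 3D (median -0.02). Without static 3D replicate 2, 10 of 14 lay below 0 for static 3D (median -0.16). Without perfused replicate 1, 10 of 14 lay below 0 for perfused 3D (median -0.12). With the chip as a block 13 of 14 lay below 0 in each comparison with 2D, at medians of -0.7 for perfused and -0.5 for static 3D. Under this block perfused 3D is compared through static 3D replicate 1, an outlying array and the only static one on its chip. Perfused minus static 3D then had 11 of 14 below 0 (median -0.29), and without perfused replicate 2 it also had 11 (median -0.21). 2D replicate 1 had all 8 tested markers of dividing cells detected, with a summed intensity of 6800 against 873 and 1310 on the other monolayers. Static 3D replicate 1 also had all 8 detected, with a sum of 5020 against 816 and 1240 on the other static arrays. On it TOMM5 was the lowest of the static arrays, at 9.34, and TOMM22 the highest, at 10.53. The part of those cells in the import genes was not tested.

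**Figure D5:**
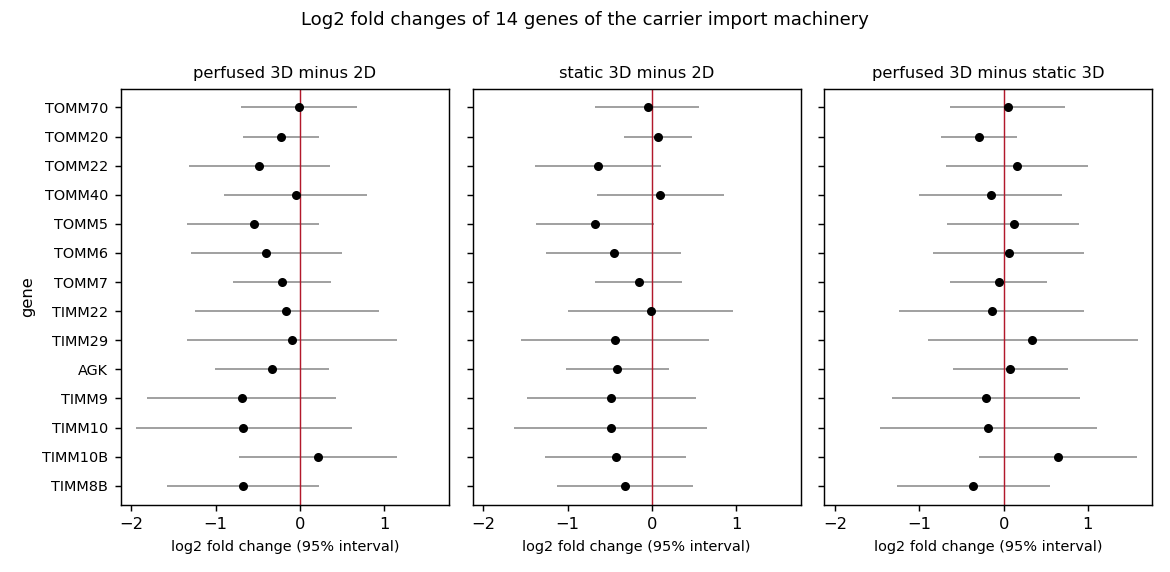
Log2 fold changes (points) with 95% intervals (lines) of 14 genes of the carrier import machinery for perfused 3D minus 2D, static 3D minus 2D and perfused minus static 3D. Points lie below 0 for 13, 12 and 7 genes, and the intervals include 0 for the genes with the smallest p, TOMM5 at -0.67 among them.

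Of inner membrane transporters outside the family none passed the test. Of 9 tested, 4 lay above 0 for perfused 3D minus 2D (median -0.031), 2 for static 3D minus 2D (median -0.136) and 4 for perfused minus static 3D (median -0.009). These counts depend on the chip and on 2D replicate 1. With the chip as a block 1, 2 and 1 of 9 lay above 0, at medians of -0.7, -0.28 and -0.31, and without 2D replicate 1 the first count was 7 (median 0.15). SFXN5, a sideroflexin, was at 0.64 (SE 0.46) for perfused and 0.68 (SE 0.41) for static 3D over 2D, and ABCB10, an ABC transporter needed for haem synthesis, at -0.54 (SE 0.33) for perfused 3D over 2D. MPC1, a subunit of the pyruvate carrier, was at -0.36 (SE 0.25) for perfused 3D over 2D and -0.25 (SE 0.25) over static 3D. The serine carrier SFXN1 was at -0.37 (SE 0.29) for static 3D over 2D and 0.39 (SE 0.32) for perfused over static 3D. MCU, the calcium channel, was at -0.42 (SE 0.38) for static 3D over 2D and 0.57 (SE 0.42) for perfused over static 3D.

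Of the enzymes that use what the carriers deliver, 26 were tested and none was called. For perfused 3D minus 2D 19 lay above 0 (median 0.216), for static 3D minus 2D 12 (median -0.075) and for perfused minus static 3D 21 (median 0.185). With the chip as a block 13, 12 and 15 lay above 0, and without 2D replicate 1 the first count was 17 (median 0.12). Without perfused replicate 2, 14 lay above 0 for perfused 3D minus 2D (median 0.13) and 14 for perfused minus static 3D (median 0.07). Beside CPS1, the urea cycle enzyme OTC lay at 11.26 and 11.52 in perfused 3D, 10.93, 9.86 and 10.58 in static 3D, and 8.35, 10.87 and 9.64 in 2D, with both perfused arrays above all monolayers at a log2 fold change of 1.77 (SE 0.64, limma adjusted p = 0.964). The other enzymes of the cycle differed among themselves. For perfused and static 3D over 2D, ASS1 was at 0.02 and -0.09 and ASL at 0.26 and -0.23. ARG1 was at 1.89 (SE 0.99) and 1.65 (SE 0.88). It lay at 11.15 and 10.55 in perfused 3D, 10.31, 10.50 and 11.05 in static 3D, and 6.55, 10.48 and 9.86 in 2D. ARG1 was detected on 2 of 3 monolayers, and 2D replicate 1 stood far below the other monolayers. ME1, the cytosolic malic enzyme, lay at 7.85 and 8.80 in perfused 3D, 7.95, 7.46 and 8.23 in static 3D, and 9.20, 8.57 and 9.08 in 2D. All static arrays were below all monolayers for ME1, at -1.07 (SE 0.34, limma adjusted p = 0.94). IDH2, the matrix isocitrate dehydrogenase, was at 0.91 (SE 0.43) for static 3D over 2D. It lay at 11.94, 11.57 and 11.89 in static 3D and 9.77, 11.35 and 11.54 in 2D, again with 2D replicate 1 far below the other monolayers. PCK2, the matrix enzyme that makes phosphoenolpyruvate, was at 0.64 (SE 0.26) for perfused 3D over 2D and 0.46 (SE 0.26) over static 3D. CPT1A, which makes the acylcarnitines that SLC25A20 carries, was at 0.81 (SE 0.36), and GLUD1, glutamate dehydrogenase, at 0.44 (SE 0.30), both for perfused over static 3D. CPT1A was detected on both perfused arrays but on 1 of 3 static ones, so its value rests partly on levels that give only a bound. On perfused replicate 1 it lay at 6.83, close to the detection floor of that array, 6.79.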

How the data were processed

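RNA was hybridised to 8 Illumina HumanHT-12 v4 bead arrays: 2 perfused 3D, 3 static 3D and 3 2D. The sample labels do not say whether each array stands for a separate culture. Per the file headers, the authors deposited the mean bead intensity of 47323 probes and a detection p-value for each, which moves in steps of 1 in 770. Array medians of 279 to 386 show that the deposited intensities are unscaled. The authors also deposited log2 values by a normalisation that no source here records. They rank the probes of each array like its intensities (rank correlation 1) and have medians of 7.46 to 7.64, with the base and the scale read from the values and the offset unknown. They served as an alternative. The scanner software is not stated.

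In limma 3.58.1 (R 4.3.3) background was corrected by normexp with negative controls inferred from the detection p-values and an offset of 16, followed by quantile normalisation and log2. Symbols came from the platform annotation, which can be old: 30113 probes have 1 symbol, 8 several and 17202 none listed. Probes with detection p under 0.05 on at least 2 arrays were kept (18556, of which 14115 have 1 symbol), and the brightest by mean stood for a gene (11031 genes). A mean per group was fitted to all 8 arrays, with no covariate, variances moderated by eBayes along an intensity trend (residual df 5, total df 8.45), two-sided tests and Benjamini-Hochberg adjustment over all genes at 0.05. Precision is limited by the number of arrays.

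The members, pathway lists and marker lists were chosen with earlier results of these data known. Values per array are given for the 6 members with the smallest p in each comparison and for 17 members written down as of interest to liver (SLC25A6 unlisted), and in each pathway list the 3 smallest p-values of a comparison are named. SLC25A18, SLC25A24 and the enzymes ASS1, ASL and ARG1 were added after their values were seen. Of the other members detected, ranges are given. Alternatives covered background correction, scaling, the detection filter, the probe rule, the authors' values, array weights, chip and single arrays; those for the pathway lists, and the detection floor for undetected arrays, were added after the data were seen. With static 3D alone on both chips, the chip as a fixed block gives within-chip differences, and their sum for perfused 3D against 2D. Promoter sequences are RefSeq's (GRCh38.p14), matched by symbol for 44 of 53 members.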

Additional observations from a re-analysis of the deposited data

How the results depend on the processing

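No carrier gene was called under any alternative run in any comparison. As a yardstick served the spread between replicates of the mean level over the carriers (SD 0.115), which is not a spread of the median fold change. The median log2 fold change of the carriers moved by more than this spread as follows. For perfused 3D minus 2D (0.149 as reported) it was 0.02 without a detection filter, -0.099 with the chip as a block, and -0.092 to 0.307 without single arrays. For static 3D minus 2D (-0.059) it was -0.298 with median scaling, -0.201 with array weights and -0.212 without the first replicates of 2D and static 3D, while it stayed within that spread, at -0.162 to -0.027, without single arrays. For perfused minus static 3D (0.204) it was 0.404 with median scaling, 0.067 without a filter, 0.013 with the chip as a block, 0.344 without both first replicates, and 0.055 to 0.344 without single arrays. Median scaling moved the median of all genes too, by 0.202 for perfused over static 3D and by -0.174 for static 3D over 2D, and left 30 and 8 of 35 carriers above 0, beside 71.2% and 31.1% of all genes. Of all genes, 1 was called for perfused 3D minus 2D, against 0 with only probes detected on all 8 arrays, with the chip as a block or with only these groups in the fit, 2 without a filter, 2 without both first replicates, and 0 to 1 without single arrays. For perfused minus static 3D 1 was called, against 0 with probes detected on all 8 arrays, the chip as a block or only these groups, 2 without a filter, and 1 without any single array. For static 3D minus 2D 0 were called by limma at an adjusted p under 0.05 (519 at an unadjusted p under 0.05), and 1 without both first replicates. Of the 18 gene values followed, SLC25A39 for perfused over static 3D ranged from -0.02 (without perfused replicate 2) to 0.68 without single arrays, and the others kept their direction. SLC25A47 over 2D ranged from 0.84 to 2.21 for perfused 3D (adjusted p 0.138 to 1) and from 0.6 to 1.74 for static 3D (adjusted p 0.245 to 0.999), and UCP2 for perfused over static 3D from 0.89 to 2.61. SLC25A47, UCP2, SLC25A26 and SLC25A45 have no value with probes detected on all 8 arrays, a filter they do not pass. The causes of these shifts were not tested. No paired analysis was possible because the labels carry no replicate numbers and tie no array to a donor. On 7 of 8 arrays the most similar array was of another group, so the unpaired fit may miss differences within a donor, which were not tested.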
